A study of Homo sapiens with 38 samples.

Results

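The comparison described here was between human embryonic stem cells carried for 4 days in a medium called FAX and naive cells of the same experiment, the second of 2 in the study (Ex2). The members were the 2 libraries titled as FAX day 4 of Ex2 and the 2 libraries titled as naive cells (PXGL, day 0) on Geltrex of Ex2, 4 of 38 libraries in 19 groups of 2. All libraries were 3′ tag sequencing libraries of Shef6, an embryonic stem cell line of which 1 line was used, grown in 5% O2 and adapted beforehand to a serum coating. The naive cells were kept on Geltrex, a basement membrane extract, in PXGL: N2B27 basal medium with the MEK inhibitor PD0325901, the tankyrase inhibitor XAV939, the PKC inhibitor Gö6983 and the cytokine LIF. FAX was N2B27 with FGF2, Activin A and XAV939 on Geltrex, with a ROCK inhibitor in the first day. Both groups were thus exposed to XAV939, while the MEK and PKC inhibitors and LIF were absent from FAX. Per the study's methods, naive medium also received a ROCK inhibitor in the first day after each passage. Whether it was present when the naive cells were taken is not known. The comparison groups were 2 libraries each of N2B27 with XAV939 alone (XAV) and of plain N2B27 at day 4 of Ex2, and, from the first experiment (Ex1), naive cells on Geltrex and cells after 4 days in mTeSR, a commercial medium that also supplies FGF2 and a ligand of the Activin and TGFβ family. The titles give the naive libraries of Ex2 as day 0, whereas their library names read day 4, and the day at which they were taken is therefore known only from the title and the time label.

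Naive pluripotent cells resemble the epiblast before implantation, and capacitation is their passage through a formative stage to the primed state, which can respond to signals for germ layer formation. In naive culture the MEK inhibitor blocks the step between FGF receptors and the kinase ERK, whose activity induces its own feedback inhibitors and a set of immediate early and ETS factor genes. Nodal and Activin act through type I receptors and the factors SMAD2 and SMAD3, which work with FOXH1 in pluripotent cells and induce the Nodal antagonists LEFTY1 and LEFTY2, and tankyrase inhibition stabilises AXIN and restrains canonical WNT signalling.

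Total estimated counts were 3038046 and 3642536 in the naive libraries and 3958014 and 4290100 in the FAX libraries. Replicates were parallel libraries of 1 experiment, which the study mostly calls technical, so that all p-values measure only the spread between such libraries. Log2 levels of the replicates correlated with r = 0.978 in naive and 0.981 in FAX cells across genes, which are not independent replicates. Genes of ribosomal proteins took 11.7% and 11.6% of counts in the naive and 8.47% and 8.84% in the FAX libraries, and their part in the results was not tested. The naive libraries of Ex2 stood apart from the naive Geltrex libraries of Ex1: 772 genes differed between them (4.63% of genes tested), 389 higher and 383 lower in Ex2. Values against the Ex1 naive libraries are therefore given for the lists and for named list genes whose call they change, although experiment and medium cannot be told apart in them. Of the markers of pluripotent cells, POU5F1 was at 413 and 336 CPM in naive and 422 and 456 CPM in FAX cells, and SOX2, NANOG and LIN28A were also detected in all 4 libraries. CPM are counts scaled by TMM to a common library total, and fewer cells with a transcript cannot be told apart from less of it per cell.

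Between naive and FAX cells 3505 of 16674 genes tested were called (21.0%), 2005 higher in FAX (12%) and 1500 lower (9%). Called means an adjusted p under 0.05 over all genes tested, in edgeR's quasi-likelihood test, and an absolute log2 change above 1. The median log2 change of all genes was 0.02. The libraries of both groups did not overlap in 11880 genes (71.2%), so that absence of overlap alone marks most genes here. Against the Ex1 naive libraries the same FAX libraries gave 2711 calls (16.3%), of which 1997 had the same sign in both comparisons, 57.0% of the former and 73.7% of the latter list. Both comparisons use the same FAX libraries. Of the 2005 genes called higher in FAX, 230 were also called lower in Ex2 than in Ex1 naive cells.

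**Figure D1:**
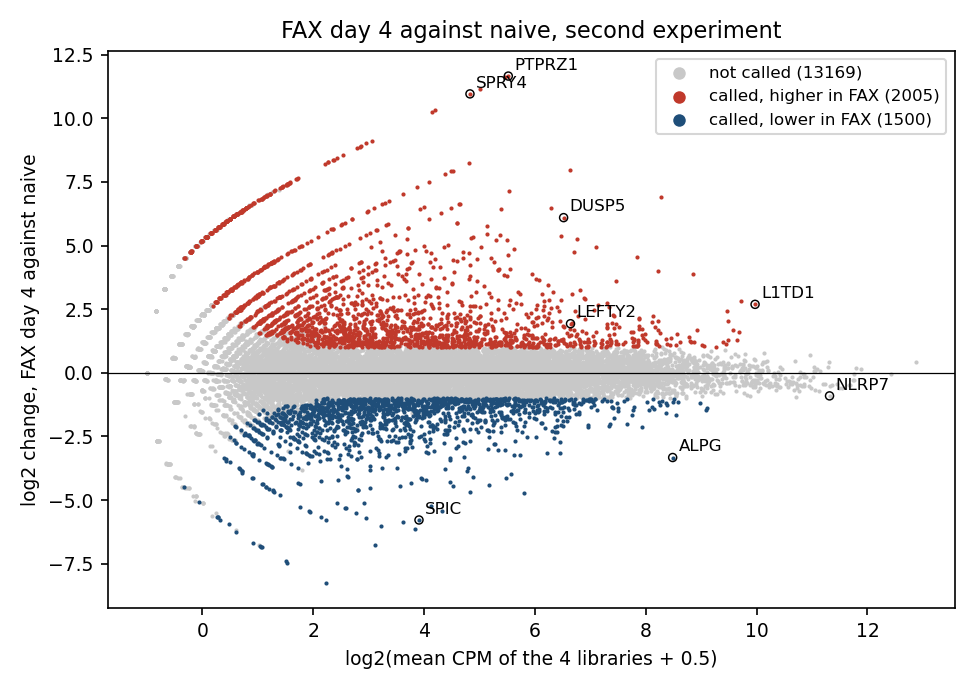
Log2 change from naive to FAX day 4 (vertical axis) against the log2 of the mean CPM of the 4 libraries plus 0.5 (horizontal axis), 1 point for each of 16674 genes tested, with called genes coloured. The 2005 genes called higher spread to larger changes than the 1500 called lower, with SPRY4 and PTPRZ1, at 0 in both naive libraries, at the top and ALPG and SPIC among the falls.

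Targets of FGF and ERK signalling were higher in FAX almost throughout. Of 19 tested genes, of 20 listed, 18 rose and none fell, with a median log2 change of 4.74, and their summed level went from 84.3 and 84.9 CPM to 1251 and 1195 CPM. SPRY4, a feedback inhibitor of receptor tyrosine kinase signalling at chr5:142310427-142326455, had 0 counts in both naive libraries and 56.8 and 54.9 CPM in FAX, at least 54.5-fold higher. SPRED1, which inhibits RAF activation by RAS, was at 3.76 and 3.32 CPM in naive and 82.5 and 90.6 CPM in FAX cells (log2 change 4.61, SE 0.20, adjusted p = 4.79e-20). SPRY2 was at 7.51 and 10.2 CPM in naive and 60.9 and 57.7 CPM in FAX cells (log2 change 2.72, SE 0.19). The groups lay far apart in these 3 genes, with both FAX libraries above both naive libraries. SPRY1 changed less, from 4.78 and 2.77 CPM to 7.39 and 8.52 CPM (log2 change 1.11, adjusted p = 0.00831), and its call was lost without naive replicate 2 (0.76) or FAX replicate 2 (1.00).

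The phosphatases that remove phosphate from ERK rose with the sprouty genes. DUSP6, which acts on ERK in the cytoplasm, was at 0 and 0.277 CPM in naive and 25.2 and 31.5 CPM in FAX cells, at least 27.7-fold higher. DUSP5, which acts on ERK in the nucleus, was at 2.39 and 2.77 CPM in naive and 186 and 173.7 CPM in FAX cells (log2 change 6.10, SE 0.20, adjusted p = 6.72e-24). DUSP4 rose at least 32.1-fold, from 0.342 and 0 CPM. DUSP6 and DUSP4 were thus at the counting floor in naive cells, whereas DUSP5 was above it there. The PEA3 group of ETS transcription factors, induced by FGF in many tissues, also rose: ETV5 at least 53.8-fold from 0 and 0.277 CPM to 54.8 and 55.4 CPM, ETV1 by 5.22 and ETV4 by 3.09 on the log2 scale. ETV4 differed from ETV5 in being present in naive cells, at 10.2 and 11.9 CPM.

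PHLDA1, an early response gene, was at 5.46 and 3.04 CPM in naive and 177 and 169 CPM in FAX cells (log2 change 5.38, SE 0.18). MYC and FOS, immediate early transcription factors, rose at least 24.3-fold and 23.6-fold from levels at the floor. CCND1, the G1 cyclin induced by mitogens, was at 1.37 and 2.21 CPM in naive and 54.5 and 44.7 CPM in FAX cells. The cyclin was thus low but countable in naive cells, with no overlap between groups. EGR1 rose only to 3.31 and 1.66 CPM, at least 2.43-fold above the floor, and was not called without naive replicate 2 (log2 change 1.84) or FAX replicate 1 (1.40). FOSL1 was at 0.683 and 0.553 CPM in naive and 1.78 and 1.42 CPM in FAX cells and was the 1 member not called (log2 change 1.34, adjusted p = 0.14), while against the Ex1 naive libraries it was called and all 19 members rose.

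**Figure D2:**
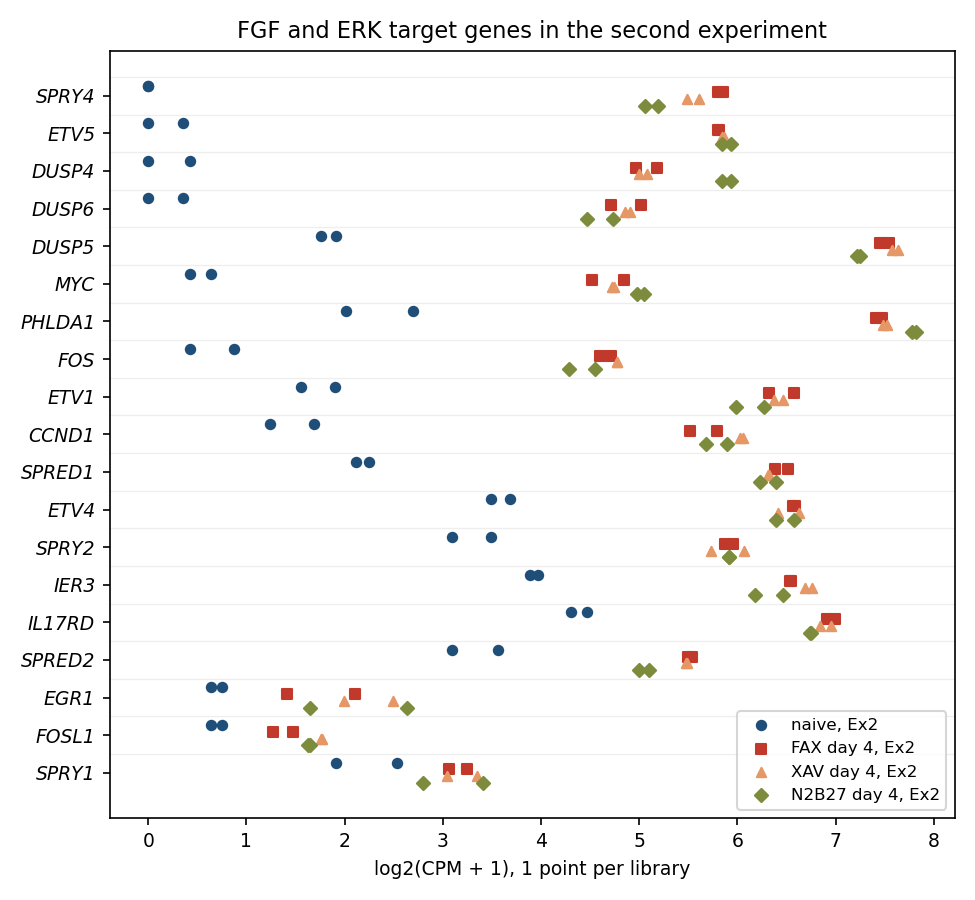
Levels of the 19 tested FGF and ERK target genes as log2 of CPM plus 1 (horizontal axis), 1 point per library, in naive, FAX, XAV and N2B27 cells of Ex2. The naive points of SPRY4, ETV5, DUSP4 and DUSP6 lie at or near 0 while those of all 3 differentiation media lie together to the right, and SPRY1, EGR1 and FOSL1 are the genes with the narrowest gaps.

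Promoter sequence is shown for 3 genes that stand for the signalling inputs compared: SPRY4 and PHLDA1 for ERK and MIXL1, described below, for Nodal. The sequences run from 250 bases before to 50 after the annotated start (RefSeq, GRCh38.p14) at chr5:142324198-142324497 on the minus strand, chr12:76031727-76032026 on the minus strand and chr1:226223414-226223713 on the plus strand. Capitals mark matches, on either strand, to the ETS core CCGGAA, the SMAD box CAGACA or the FOXH1 core AATCCA.
SPRY4: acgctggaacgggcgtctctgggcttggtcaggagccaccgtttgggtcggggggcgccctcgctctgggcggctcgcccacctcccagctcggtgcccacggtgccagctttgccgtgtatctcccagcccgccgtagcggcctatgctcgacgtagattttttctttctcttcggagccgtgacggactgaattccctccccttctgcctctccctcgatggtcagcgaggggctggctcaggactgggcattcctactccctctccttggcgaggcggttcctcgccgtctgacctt
PHLDA1: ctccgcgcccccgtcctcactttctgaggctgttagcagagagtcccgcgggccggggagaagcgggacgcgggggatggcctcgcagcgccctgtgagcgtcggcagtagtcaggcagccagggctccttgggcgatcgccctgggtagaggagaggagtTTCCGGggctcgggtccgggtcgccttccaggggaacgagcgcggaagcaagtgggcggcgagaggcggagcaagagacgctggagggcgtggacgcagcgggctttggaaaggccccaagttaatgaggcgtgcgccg
MIXL1: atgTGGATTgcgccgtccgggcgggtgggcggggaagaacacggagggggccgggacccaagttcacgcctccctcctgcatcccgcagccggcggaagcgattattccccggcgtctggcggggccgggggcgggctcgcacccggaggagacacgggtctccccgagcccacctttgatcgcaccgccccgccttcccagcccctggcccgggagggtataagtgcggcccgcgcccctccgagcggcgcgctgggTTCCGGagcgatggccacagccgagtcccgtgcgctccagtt
The SPRY4 window held no match, that of PHLDA1 1 ETS core, and that of MIXL1 1 ETS core and 1 FOXH1 core. Of the ERK and Nodal target lists 12 and 9 genes had a promoter entry. The ETS core was found in 3 of these 12 ERK target promoters (25%) and 2 of 9 Nodal target promoters (22.2%) against 17.2% of all 35116 promoters. The FOXH1 core was found in 3 of 9 Nodal target promoters (33.3%) against 10.5% of all, and the SMAD box in 1 of 9 (11.1%) against 16.9%. The list shares took the first listed start of each gene and the share of all promoters every start, so that they were not counted alike. These matches describe letters in windows of 300 bases and were not tested as sites.

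The genes for FGF signals themselves changed at the level of ligand and receptor. Of 10 tested, of 12 listed, FGF2, FGF8, FGF19, FGFR1 and FGFRL1 rose and none fell, with a median log2 change of 1.49. Against the Ex1 naive libraries 4 rose, with a median of 0.50: FGF8 (0.13) and FGFRL1 (0.55) were not called and FGFR4 was (1.08). FGF8 was itself lower in Ex2 than in Ex1 naive cells, with 0 counts against 2.24 and 1.62 CPM. FGF2, whose protein FAX also supplies, was at 22.9 and 29.3 CPM in naive and 337 and 314 CPM in FAX cells (log2 change 3.63, SE 0.12, adjusted p = 9.48e-24). FGFR1, the main FGF receptor of primed cells, was at 77.5 and 95.5 CPM in naive and 394 and 372 CPM in FAX cells (log2 change 2.14, SE 0.12). FGF19 rose from 1.37 and 0.277 CPM to 21.4 and 20.6 CPM. In these genes both FAX libraries agreed closely and the naive libraries lay well below. FGF4, the autocrine ligand of early pluripotent cells, was at 311 and 324 CPM in naive and 221 and 223 CPM in FAX cells and was not called (log2 change -0.52). FGF5, a marker of formative and primed cells, had 0 counts in all 4 libraries.

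Genes of the formative and primed state rose without exception among those tested: 19 of 19, of 21 listed, with a median log2 change of 5.87. Some of these list genes are markers that the study itself displays for these samples, so their direction is not independent evidence. PTPRZ1, a receptor phosphatase of neural and primed pluripotent cells, had 0 counts in both naive libraries and 98.6 and 83.1 CPM in FAX, at least 88.7-fold higher. THY1, a surface antigen of primed cells, went from 0 in both to 83.8 and 91.1 CPM, at least 85.4-fold. ZIC2, a transcription factor of formative cells, rose at least 45.3-fold and the SOX factor gene SOX3 at least 39.7-fold. SOX11, another SOX factor gene, was at 1.71 and 1.66 CPM in naive and 144 and 162 CPM in FAX cells (log2 change 6.49). Naive libraries were at the floor for PTPRZ1, THY1, ZIC2 and SOX3, and those of SOX11 just above it. CD24, a surface protein used to sort primed cells, was already present in naive cells at 53.6 and 63.1 CPM and reached 895 and 839 CPM (log2 change 3.89). VIM, an intermediate filament gene, rose at least 13.3-fold from 0. OTX2, a transcription factor of early capacitation, was low throughout, at 2.05 and 1.11 CPM in naive and 5.35 and 4.73 CPM in FAX cells (log2 change 1.70), and its call was lost without naive replicate 2 (1.31). OTX2 and TCF7L1, a repressor of WNT targets with a log2 change of 1.40, were the list genes not called against the Ex1 naive libraries, with log2 changes of -0.25 and 0.18, leaving 17 of 19.

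Of the 9 general pluripotency genes tested, 2 rose and none fell (1 rose against Ex1), near the 21.0% called of all genes. NANOG, shared by naive and primed cells, was at 777 and 882 CPM in naive and 1435 and 1397 CPM in FAX cells, below the fold set for a call (log2 change 0.77). SALL4, a zinc finger factor of pluripotent cells, was at 138 and 153 CPM in naive and 362 in both FAX libraries (log2 change 1.31). The rise of SALL4 was seen against the Ex2 naive libraries alone, since against those of Ex1 the log2 change was 0.21. UTF1, a chromatin factor, rose by 1.22 on the log2 scale, and by 1.23 against Ex1. Against all 6 naive libraries pooled none of the 9 genes was called, UTF1 being at 0.97.

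Genes of naive pluripotency did not fall together. Of 22 tested, 7 fell, 2 rose and 13 were not called, with a median log2 change of -0.71. SPIC, an ETS factor gene of naive cells, was at 31.4 and 25.7 CPM in naive and 0.255 and 0.710 CPM in FAX cells, at least 37.4-fold lower. ALPG, an alkaline phosphatase gene whose reads can be shared with its near copy ALPP, was at 645 and 657 CPM in naive and 65.2 and 64.6 CPM in FAX cells (log2 change -3.33, SE 0.16, adjusted p = 3.88e-19). The transcription factor genes KLF5 and TBX3 fell by 1.61 and 1.34 on the log2 scale, KLF5 from 165 and 169 CPM to 55.8 and 53.5 CPM. In each of these 4 genes the FAX libraries lay below the naive ones by more than the spread of either pair. DPPA5, an RNA binding protein gene of naive cells, fell by 1.27, DNMT3L, a cofactor of the DNA methyltransferases, by 1.39, and KHDC1L, which has near copies, by 1.39 on the log2 scale. All of these 7 were also called lower against the Ex1 naive libraries, where KLF4 was the eighth, with a log2 change of -1.12 against -0.31 in Ex2.

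The naive genes that rose differed in how far they rested on the Ex2 naive libraries. KLF17, a transcription factor gene widely used to mark naive cells (chr1:44118821-44135140), was at 36.9 and 42.3 CPM in naive and 95.0 and 106 CPM in FAX cells, with no overlap (log2 change 1.34, SE 0.30, adjusted p = 0.000845). The Ex1 naive libraries, however, held 107.5 and 125.9 CPM of KLF17, and the log2 change against them was -0.22 (adjusted p = 0.57). KLF17 was itself lower in Ex2 than in Ex1 naive cells by 1.56 on the log2 scale (adjusted p = 0.000756). DPPA2, a chromatin binding protein gene of pluripotent cells, was at 19.5 and 18.8 CPM in naive and 111 and 107 CPM in FAX cells (log2 change 2.51) and rose against Ex1 as well (log2 change 1.80). Several naive genes stayed abundant after 4 days in FAX. NLRP7, a maternal effect gene, was at 3308 and 3341 CPM in naive and 1787 and 1763 CPM in FAX cells (log2 change -0.91), and SUSD2, a surface marker of naive cells, was at 99.7 and 86.1 CPM in naive and 156 and 163 CPM in FAX cells (log2 change 0.78). Neither reached the fold set for a call.

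**Figure D3:**
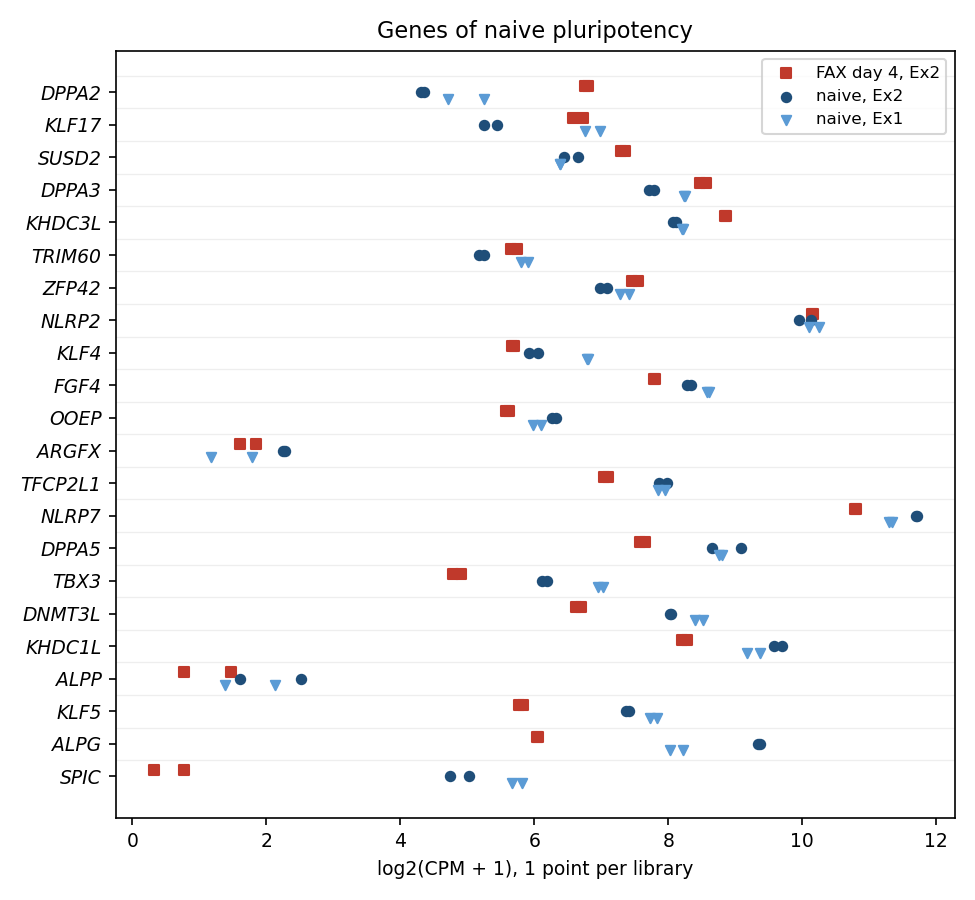
Levels of the 22 tested naive pluripotency genes as log2 of CPM plus 1 (horizontal axis), 1 point per library, in FAX day 4 cells and in the naive Geltrex cells of Ex2 and of Ex1. SPIC and ALPG lie far to the left in FAX, and for KLF17 the FAX points (95.0 and 106 CPM) lie above the Ex2 naive points but not above those of Ex1 (107.5 and 125.9 CPM).

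Of 16 genes for the components that carry Nodal and Activin signals (ligands, receptors and SMADs) 14 were tested, of which 3 rose and 1 fell, near the 21.0% called of all genes, with a median log2 change of 0.46 (0.29 against Ex1). ACVR1B, the type I receptor for Activin and Nodal, was at 51.2 and 42.1 CPM in naive and 18.6 and 19.4 CPM in FAX cells (log2 change -1.29). TGFBR1, the type I receptor for TGFβ, was at 31.4 and 24.1 CPM in naive and 69.0 and 64.4 CPM in FAX cells (log2 change 1.28), but was not called against the Ex1 naive libraries (0.86). These 2 receptors thus changed in opposite directions. INHBA, the gene for the subunit of Activin A, was near the floor in all 4 libraries (0, 0.277, 1.53 and 0.947 CPM) although called higher, as was INHBE, which encodes another inhibin subunit. GDF3, a ligand of the Nodal pathway in pluripotent cells, was at 385 and 376 CPM in naive and 535 and 520 CPM in FAX cells (log2 change 0.47).

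Targets of Nodal and Activin rose in part, 7 of 12 tested with none falling and a median log2 change of 1.87. LEFTY1, an antagonist that binds Nodal and its coreceptors, was at 18.1 and 31.3 CPM in naive and 126 and 130 CPM in FAX cells (log2 change 2.35, SE 0.21, adjusted p = 1.09e-10), 5.09-fold. LEFTY2 (chr1:225936598-225941383), its neighbour on chromosome 1 and a near copy with which reads can be shared, was at 26.3 and 55.3 CPM in naive and 161 and 156 CPM in FAX cells (log2 change 1.93, SE 0.25, adjusted p = 4.30e-07), 3.81-fold. The naive libraries differed from each other in both LEFTY genes, replicate 1 being the lower, and both FAX libraries lay above them. MIXL1, a homeobox gene induced by Nodal at the onset of gastrulation, was at 2.39 and 3.87 CPM in naive and 32.6 and 33.8 CPM in FAX cells (log2 change 3.36, SE 0.31, adjusted p = 4.31e-11). SMAD7, an inhibitory SMAD, rose by 2.30 and SKIL, a repressor of SMAD activity, by 1.24 on the log2 scale, the latter not called against Ex1 (0.66). CER1 and GSC were called higher but only reached 1.02 and 0.947 CPM, and 1.78 and 1.66 CPM. Both lost the call when single libraries were left out, CER1 without naive replicate 1 (log2 change 5.19), naive replicate 2 (5.19) or FAX replicate 1 (5.13), and GSC without naive replicate 1 (2.53) or either FAX library (3.23 and 3.33).

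The remaining targets were not called. NODAL itself was at 92.5 and 126 CPM in naive and 209 and 229 CPM in FAX cells, with a log2 change of 1.00 that fell just short of the fold set (SE 0.17, adjusted p = 1.38e-05). PMEPA1, an inhibitor of SMAD activation, was at 58.7 and 108.7 CPM in naive and 87.4 and 85.2 CPM in FAX cells, and its groups overlapped. The response of this list rested strongly on the naive libraries used. With naive replicate 1 of Ex2 alone its median log2 change was 2.54, and with replicate 2 alone 1.45. The Ex1 naive libraries held 86.6 and 77.2 CPM of LEFTY1, 121.4 and 120.9 CPM of LEFTY2 and a mean of 20.1 CPM of MIXL1, and the log2 changes against them were 0.64, 0.38 and 0.72, none called. Against Ex1, 3 of the 12 genes rose, SMAD7 among them with a log2 change of 1.15, 1 fell, and the median was 0.65.

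**Figure D4:**
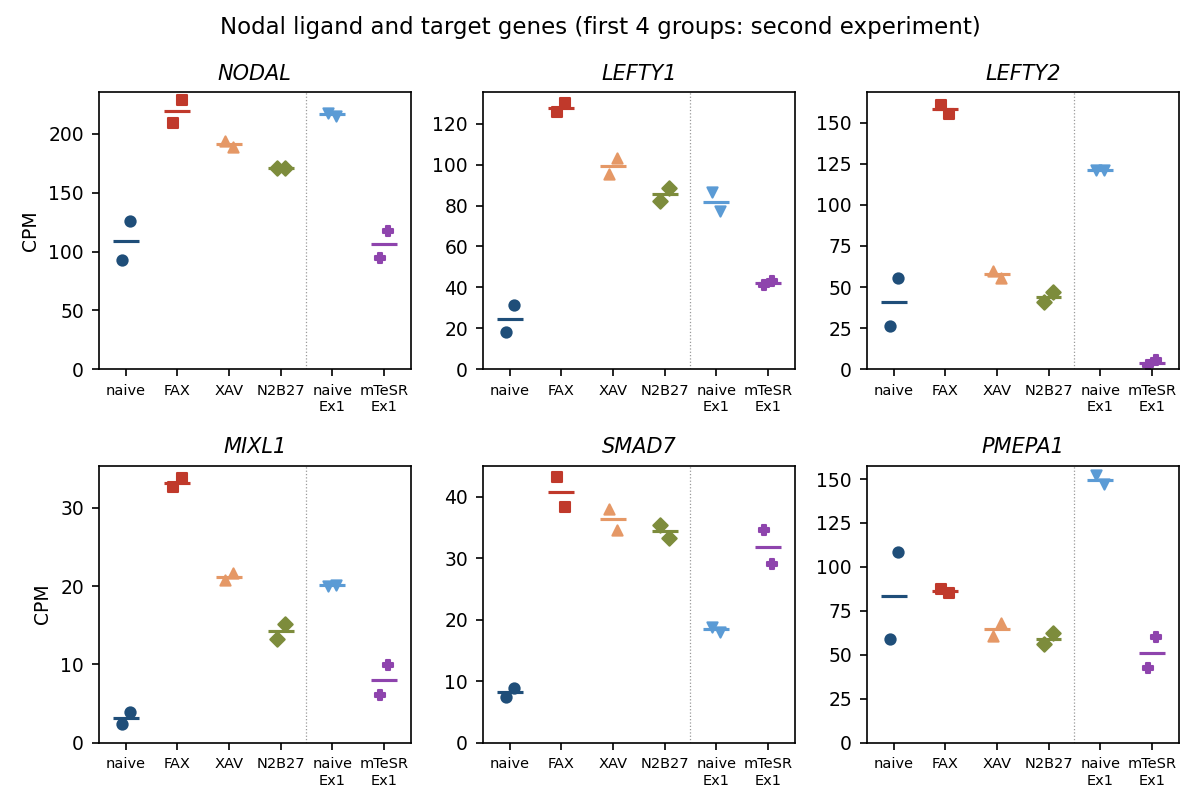
CPM (vertical axes, from 0) of NODAL and 5 target genes in naive, FAX, XAV and N2B27 cells of Ex2 and, right of the dotted line, naive and mTeSR day 4 cells of Ex1, with 1 point per library and a bar at the mean. LEFTY2 stands at 161 and 156 CPM in FAX, above XAV and N2B27, while the Ex1 naive libraries (121.4 and 120.9 CPM) lie closer to FAX than the Ex2 naive libraries do.

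Genes of the BMP pathway, for which FAX holds no ligand, showed 9 rises and 1 fall among 15 tested of 16 listed, with a median log2 change of 1.42. Rises and falls made up 12% and 9% of all genes tested. ID1 and ID3, targets of BMP and SMAD1/5 that inhibit basic helix-loop-helix factors, went from 17.1 and 24.9 CPM to 157 and 152 CPM and from 1.37 and 1.38 CPM to 56.8 CPM in both FAX libraries. BMP7 and the inhibitory SMAD6 rose by 2.99 and 2.73 on the log2 scale. The ligand gene BMP2 was at 12.3 and 22.4 CPM in naive and 0.255 and 0.237 CPM in FAX cells, at least 22.7-fold lower. BMP4 was at 11.6 and 13.3 CPM in naive and 19.1 and 19.9 CPM in FAX cells (log2 change 0.64). Against the Ex1 naive libraries 8 rose and 1 fell, with a median of 1.09.

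Of 11 genes of LIF, JAK and STAT3 signalling 1 rose and 2 fell, again near the share of all genes called. SOCS2 and BCL3, STAT targets, fell by 2.44 and 2.32 on the log2 scale. With the Ex1 naive libraries 2 rose and 2 fell. SOCS3, the feedback inhibitor of LIF signalling, changed the other way, from 1.02 and 0.83 CPM to 21.4 and 14.2 CPM, at least 17.4-fold higher. Of 14 tested WNT targets and tankyrase genes (17 listed), 2 rose and 2 fell in media that both held XAV939, also near that share. TCF7 and SP5 rose, by 1.72 on the log2 scale and at least 8.46-fold. The WNT inhibitors NKD2 and RNF43 fell by 2.02 and 1.96 on the log2 scale. With those of Ex1, 1 rose and 1 fell, and TCF7 (0.82) and RNF43 (-0.97) were not called. AXIN2, the target most used as a WNT readout, was at 21.5 and 18.3 CPM in naive and 37.7 and 36.2 CPM in FAX cells and was not called (log2 change 0.90).

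Genes of DNA methylation changed in both directions, 3 up and 2 down of 11, beside 12% up and 9% down of all genes tested. DNMT3B, a de novo methyltransferase and a mark of formative cells, was at 220 and 194 CPM in naive and 1515 and 1441 CPM in FAX cells (log2 change 2.84, SE 0.11, adjusted p = 2.90e-21), 7.15-fold. DNMT1, the maintenance enzyme, and ZFP57, which protects imprints, rose by 1.21 and 1.65 on the log2 scale. Against the Ex1 naive libraries DNMT1 was not called (0.37), and 2 genes of the list rose and 2 fell. DNMT3L and TET2, the latter an enzyme that oxidises methylcytosine, fell by 1.39 and 1.94 on the log2 scale. The 2 genes that fell encode a cofactor and an oxidase, and the enzymes DNMT3B and DNMT1 were among those that rose.

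Genes of epithelial character rose in 5 of 15 tested cases (16 listed) and of matrix and integrins in 10 of 19, with no fall in either list. Among all genes tested 12% rose and 9% fell, and 16.3% were called in either direction against the Ex1 naive libraries. KRT18 and KRT8, the keratins of simple epithelia, rose by 4.55 and 3.18 on the log2 scale, KRT18 from 20.2 and 17.4 CPM to 443 and 434 CPM. PODXL, an apical sialomucin, was at 41.0 and 29.9 CPM in naive and 586 and 530 CPM in FAX cells (log2 change 3.99). CDH1, the gene for E-cadherin, was at 537 and 568 CPM in naive and 287 and 296 CPM in FAX cells and did not reach the fold set (log2 change -0.92). COL1A2, a fibrillar collagen gene, went from 1.37 and 1.38 CPM to levels above 50 CPM (log2 change 5.30), LAMB1, a laminin chain gene, rose by 1.77 and ITGB1, the shared β1 integrin chain, by 1.17 on the log2 scale. Of 17 targets of YAP and TEAD factors 10 rose and 1 fell. CYR61, a matrix protein gene induced by YAP, was at 5.81 and 3.60 CPM in naive and 78.5 and 71.9 CPM in FAX cells (log2 change 4.02), and CTGF and AMOTL2 rose by 2.45 and 4.87. Against the Ex1 naive libraries 5 epithelial genes rose and 1 fell, 7 matrix genes rose and 8 YAP targets rose. There CDH1 was called lower (-1.07) and LAMB1 was not called (0.98).

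Of 17 glycolysis genes, 4 rose and 1 fell, with a median log2 change of 0.01 and a share near that of all genes called. The glucose transporter SLC2A1 and hexokinase HK1, which carry out the first steps, went from 40.0 and 37.6 CPM to 255 and 233 CPM and from 26.3 and 27.1 CPM to 214 and 202 CPM, while PFKL, the liver type of phosphofructokinase, fell by 1.14 on the log2 scale. Against Ex1, 5 glycolysis genes rose and none fell, PFKL being at -0.74. Cytochrome c oxidase genes had a median of -0.66, 11 of 12 below 0, but 1 call only, the rise of the muscle type subunit COX7A1 from 0 and 0.277 CPM to 6.88 and 9.94 CPM. Against Ex1 the median was -0.38, with 1 rise. COX4I1, a core nuclear subunit, was at 700 and 751 CPM in naive and 431 and 429 CPM in FAX cells (log2 change -0.76). Sterol synthesis genes rose in 8 of 15 cases, beside 12% of all genes tested, HMGCS1 from 269 and 264 CPM to 604 and 652 CPM. Against the Ex1 naive libraries 2 of 15 rose, and HMGCS1 was not called (0.94). Of 13 ATF4 stress genes 1 rose and 2 fell, a share near that of all genes, while 2 rose and none fell against Ex1.

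The p53 targets fell in 5 of 16 cases and rose in 1, beside falls in 9% and rises in 12% of all genes tested. Their median log2 change was -0.57, and their summed levels were 2812 and 2412 CPM in naive against 1804 and 1787 CPM in FAX cells. GDF15, a secreted stress factor, was at 455 and 327 CPM in naive and 143 CPM in both FAX libraries (log2 change -1.45, but 0.30 and not called against Ex1), and BTG2, an antiproliferative gene, fell by 2.31 (-0.78 and not called against Ex1). The Ex1 naive libraries held less of these genes, 1597 and 1515 CPM summed, and against them 4 rose and none fell. CDKN1A, the cell cycle inhibitor induced by p53, turned from a log2 change of -0.70, not called, to a called rise in that comparison. The direction of the p53 targets therefore rested on which naive libraries were used.

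Some markers of other cell types rose in FAX while several defining ones stayed at or near 0. For the counts below, 12% of all genes tested rose and 9% fell, and 16.3% were called in either direction against Ex1. Of the amnion list of 8 genes, 6 were tested and 3 rose (2 rose and 1 fell against Ex1), its summed level going from 15.7 and 15.8 CPM to 54.5 and 55.1 CPM. IGFBP3, a binding protein of insulin-like growth factors, rose at least 10.4-fold from 0, HEY1, a Notch target, at least 12.7-fold, and BAMBI, a pseudoreceptor that dampens BMP signals, by 1.42 on the log2 scale (0.90 and not called against Ex1). Of its defining markers, VTCN1 was at 0 in all 4 libraries and not tested, GABRP was at 0, 0, 0.255 and 0.473 CPM, and ISL1 was at 7.17 and 3.60 CPM in naive and 4.08 and 4.26 CPM in FAX cells (log2 change -0.33, and called lower against Ex1 with -1.02). Of 10 tested trophectoderm genes (14 listed), 3 rose and 2 fell (4 and 2 against Ex1). GATA3 rose at least 21.0-fold to 23.4 and 19.6 CPM, while CDX2 was at least 4.41-fold lower. The summed trophectoderm level hardly moved, from 453.8 and 503.0 CPM to 538.3 and 511.1 CPM. Of 10 tested hypoblast genes (11 listed) 3 rose and 1 fell, as many as against Ex1. GATA4 reached 2.55 and 2.13 CPM from 0, SOX17 was at 0, 0, 0.51 and 0.473 CPM, and HNF4A fell from 11.6 and 11.9 CPM to 1.27 and 0.947 CPM. Of 6 tested fibroblast genes (9 listed) COL1A1, COL1A2 and THY1 rose (4 genes against Ex1), and the summed level went from 5.12 and 5.26 CPM to 155 and 154 CPM, of which THY1, also in the primed list, made up 83.8 and 91.1 CPM. Germ layer genes rose in 6 of 10 tested cases, of 14 listed (5 against Ex1), their summed level going from 51.6 and 40.1 CPM to 207.8 and 210.6 CPM. TBXT, the primitive streak factor, reached 13.3 and 15.9 CPM and PAX6, the neuroectoderm factor, 13.0 and 13.3 CPM, at least 14.2-fold and 12.8-fold higher, and NES, a neural progenitor filament gene, was at 45.8 and 33.2 CPM in naive and 142 and 140 CPM in FAX cells. The part of such cells in the results above was not tested.

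**Figure D5:**
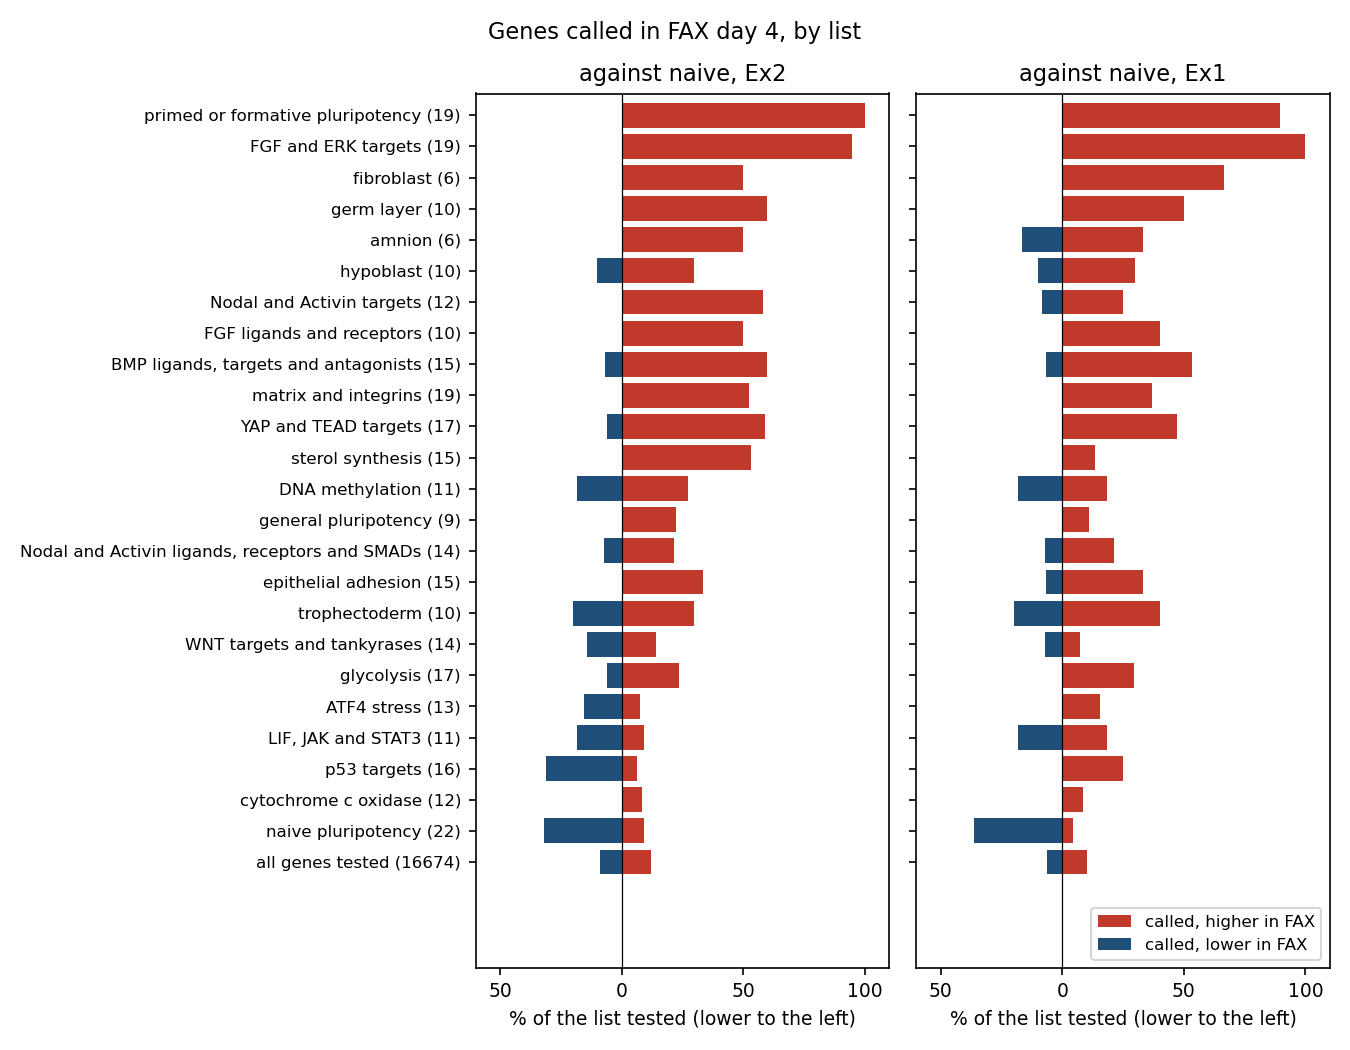
Share of each list's tested genes called higher (right) or lower (left) in FAX day 4 than in naive cells of Ex2 (left panel) and of Ex1 (right panel), with the number tested in brackets and all 16674 genes at the bottom. Primed and ERK target lists have the longest bars in both panels (17 of 19 primed genes higher against Ex1), whereas p53 targets, sterol synthesis and Nodal target genes differ between the panels.

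Genes with the largest changes overall included several outside the lists. CAV1, the coat protein of caveolae, was at 1.02 and 0.553 CPM in naive and 216 and 180 CPM in FAX cells, at least 193-fold higher. PTPRD, a receptor phosphatase gene, went from 0 in both naive libraries to 66.0 and 61.3 CPM. TRIM49C and the noncoding RNA HPAT5, also at 0 in naive cells, reached 32.6 and 39.3 CPM and 30.6 and 38.1 CPM, and both have near copies elsewhere in the genome that could share reads. Among the falls was PRAME, a cancer testis antigen gene, from 24.9 and 29.9 CPM to 0 and 0.710 CPM, at least 35.9-fold lower. OLAH, a thioesterase of fatty acid synthesis, fell from 33.5 and 43.2 CPM to 0.51 and 1.18 CPM, and ELF3, an epithelial ETS factor, from 60.4 and 76.1 CPM to 3.57 and 2.84 CPM. In each of these genes except ELF3 one group lay near the floor.

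In absolute level the largest gains were in L1TD1, an RNA binding protein of pluripotent cells derived from a LINE-1 element, from 268 and 271 CPM to 1704 and 1775 CPM (log2 change 2.69), and in DNMT3B. TERF1, a telomere binding protein, went from 227 and 223 CPM to 1232 and 1163 CPM, and JARID2, a cofactor of Polycomb complex PRC2, from 285 and 277 CPM to 1178 and 1130 CPM. L1TD1 and TERF1 also rose against Ex1 (log2 changes 1.64 and 2.00), whereas the chaperone gene HSPA8, with a log2 change of 1.60 in Ex2, stood at 0.23 there. Large losses were seen in ALPG and KHDC1L, in GFPT1, which starts hexosamine synthesis, from 806 and 791 CPM to 296 and 287 CPM, and in SMARCA2, an ATPase of SWI/SNF remodelling complexes, from 585 and 557 CPM to 174 and 183 CPM. FEZ2 fell from 376 and 413 CPM to 90.4 and 91.1 CPM.

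FAX was also compared with the other media of Ex2, XAV and plain N2B27, which hold neither FGF2 nor Activin A. FAX differed from XAV in 2 of 16674 genes (0.0120%), LEFTY2 and the clone-named gene CU638689.4, with 898 genes at an unadjusted p under 0.05, and DESeq2 called 1, whereas a fit to these groups alone called 44 and one to the Ex2 libraries 13, 1 of them shared. LEFTY2 was at 60.0 and 55.8 CPM in XAV, 2.73-fold below FAX (log2 difference 1.45, SE 0.23, adjusted p = 0.0202, 95% interval 0.98 to 1.92). That call was lost when any 1 of the 4 FAX and XAV libraries was left out, with adjusted p from 0.165 to 0.832 and log2 differences from 1.40 to 1.51. CU638689.4 was at 9.94 and 11.8 CPM in FAX and 3.62 and 3.78 CPM in XAV. Both FAX libraries lay above both XAV libraries in these 2 genes, but CU638689.4 too lost its call in each of those leave-outs, none of which shared a call with the fit to all libraries. LEFTY1 was at 95.4 and 103.4 CPM in XAV (log2 difference 0.36, SE 0.17, adjusted p = 0.92, interval 0.01 to 0.72), and MIXL1 at 20.7 and 21.7 CPM (0.65, interval 0.22 to 1.07, adjusted p = 0.847). NODAL was at 193.6 and 189.2 CPM in XAV, with an interval of the difference from -0.13 to 0.52.

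None of the 19 ERK target genes was called between FAX and XAV, a comparison in which 0.0120% of all genes tested were called. Their log2 differences ran from -0.62 in EGR1 to 0.29 in SPRY4 with a median of -0.04, and in 17 of 19 the 95% interval lay within 1 log2 unit of 0. In XAV, which held no added FGF, 19 of 19 rose against the same naive libraries (median 5.12), and in N2B27 19 of 19 (median 4.87), beside 18 in FAX. In the primed list 18 of 19 intervals of the difference between FAX and XAV lay within 1 log2 unit, and none of the genes was called. The 3 media share the naive libraries, against which XAV gave 3274 calls (19.6%) and N2B27 3633 (21.8%). Of the 12 Nodal targets 4 rose and 1 fell in XAV and 5 rose in N2B27, beside 7 in FAX.

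Against plain N2B27, FAX differed in 51 genes (0.306%), 9 higher (0.0540%) and 42 lower (0.252%). Leaving out 1 library gave 25 (without FAX replicate 2) to 34 calls, and fits to the Ex2 libraries or to these groups alone 105 and 144. LEFTY2, at 40.9 and 47.1 CPM in N2B27, was 3.59-fold higher in FAX (log2 difference 1.84, SE 0.24, adjusted p = 5.71e-05). MIXL1 was at 13.3 and 15.2 CPM in N2B27 and likewise higher in FAX (log2 difference 1.22, SE 0.23, adjusted p = 0.00221), a call lost without FAX replicate 2 (1.19) or N2B27 replicate 1 (1.13). GYPC, a membrane glycoprotein gene of red cells, was at 11.5 and 9.51 CPM in N2B27 and 24.2 and 22.7 CPM in FAX (log2 difference 1.16), a call lost without N2B27 replicate 2 (1.03). Of the genes lower in FAX, BMP4 was at 67.7 and 72.8 CPM in N2B27 (log2 difference -1.85, adjusted p = 2.83e-09), with FAX and naive cells both below 20 CPM. ACTC1, the cardiac actin gene, was at 18.1 and 13.3 CPM in FAX, 8.85 and 9.16 CPM in XAV and 57.3 and 71.6 CPM in N2B27 (log2 difference to N2B27 -2.05, adjusted p = 5.61e-09). RGS5 and ANXA1 were lower in FAX by 1.81 and 1.77 on the log2 scale. In BMP4, ACTC1, RGS5 and ANXA1 the FAX and N2B27 libraries did not overlap. INHBA was lower in FAX than in N2B27 too (log2 difference -2.16, adjusted p = 0.0174). None of the 19 ERK targets was called between FAX and N2B27, beside 0.306% of all genes, and 15 of 19 intervals lay within 1 log2 unit of 0. The interval lay above 0 in 4 of the 19 genes and below 0 in 2. SPRY4 was among the former (log2 difference 0.72, interval 0.33 to 1.11, adjusted p = 0.0677). DUSP4 was lower in FAX by less than the fold set (log2 difference -0.83, interval -1.16 to -0.49, adjusted p = 0.00516). In the primed list 15 of 19 intervals lay within 1 log2 unit, CDH2, the N-cadherin gene, was called lower in FAX (-1.09, adjusted p = 0.0190), and SOX3 was at -0.86 (adjusted p = 0.00287), short of the fold set.

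The change from naive to FAX in Ex2 was also set against that from naive to mTeSR day 4 in Ex1, each with its own naive libraries. The changes differed in 1027 genes (6.16%), being higher in FAX in 441 (2.64%) and lower in 586 (3.51%). mTeSR gave 3232 calls against Ex1 naive cells (19.4%). The difference was 6.82 for LEFTY2 (SE 0.42, adjusted p = 6.51e-11) and 4.69 for MIXL1 (adjusted p = 8.32e-10) on the log2 scale. LEFTY2 was at 2.59 and 5.53 CPM and MIXL1 at 6.12 and 9.90 CPM in mTeSR, below naive cells of Ex1 in both genes, whereas FAX lay above naive cells of Ex2. Of the 12 Nodal targets 7 differed in this direction, with a median of 1.80, and in mTeSR 1 rose and 5 fell. ERK targets differed in 4 of 19 genes, ETV1 and ETV5 changing more in FAX and SPRY1 and ETV4 more in mTeSR, where all 19 rose (median 4.18). ADM, the adrenomedullin gene, and MAL2, a gene of apical transport, had changes lower in FAX than in mTeSR by 3.75 and 3.64 on the log2 scale. Medium and experiment cannot be told apart in this comparison, and the difference between the naive libraries of Ex1 and Ex2 enters it directly.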

How the data were processed

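RNA of Shef6 cells was made into QuantSeq 3′ libraries, whose reads come from the polyadenylated ends of transcripts. The authors deposited 1 table of raw estimated counts per gene. Per the labels and the study's methods, reads were aligned to hg38 with STAR 2.7.10a and quantified with Salmon 1.9.0, after quality checks with FastQC 0.11.9, and the estimates were summed to genes. The values are whole numbers with no normalisation. Because reads carry no molecular identifiers, the floor covers counting error only, and 3′ reads that fit near-identical genes can be split between them.

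Of 57133 genes listed by symbol, 14445 had 0 counts in all libraries. The filterByExpr function left 16674 genes holding 99.65% of counts. All 38 libraries in 19 groups of 2 entered 1 quasi-likelihood fit (edgeR 4.0.16, limma 3.58.1, R 4.3.3) with TMM scaling and robust estimation, since 2 libraries per group give little information on the spread (common dispersion 0.010, a biological coefficient of variation of 10%, median prior degrees of freedom 16.7). P-values were Benjamini-Hochberg adjusted over all 16674 genes per comparison, and DESeq2 1.42.0 was an alternative. Standard errors were derived from the F statistic, and 95% intervals from these. The floor was 3 counts, not exceeded by any library of a group (0.71 to 1.02 CPM in the naive and FAX libraries of Ex2), and folds against it are bounds. In data simulated for FAX against naive on 16674 genes, 200 genes were changed, 100 of them 2-fold and 100 4-fold. An adjusted p under 0.05, with no fold threshold, recovered 77 of the former and 96 of the latter, all with the right sign. It also passed 11 unchanged genes (5.98% of those passing). The median absolute log2 change of the 2-fold genes was 1.01, and recovery under the fold set for a call was not measured. Far fewer genes were changed than passed in the data.

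The members and gene lists were chosen with earlier results of these data known. Genes named were those of the lists, the 12 largest rises and falls in log2 change and the 8 in CPM against naive (means of 20 CPM or more in the higher group, no overlap), and up to 4 in each direction for the other comparisons. Clone-named genes outside this rule are identified as such. CCN1 and CCN2 appear under the symbols CYR61 and CTGF. Positions were looked up in GENCODE release 44 (GRCh38), where 361 of 363 genes looked up had 1 position, and promoters those of RefSeq (GRCh38.p14). For lists, the first listed start of each gene was searched. The other settings tried were other scalings, filters and tools, fits to fewer libraries, other naive libraries, a replicate block, and leaving out single libraries. A few genes that met the naming rule are not reported here.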

Additional observations from a re-analysis of the deposited data

Results flagged for a closer look

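The change from naive to FAX cells in Ex2 differed from that to mTeSR cells in Ex1 in 1027 genes, by the test of the difference itself. Genes with large differences among those with at least 20 CPM in 1 group are given here as values. LEFTY2 and MIXL1, described above, differed by 6.82 and 4.69 on the log2 scale. TRIM49C differed by 7.28 (adjusted p = 0.0124), a fitted value that depends on the prior count because both Ex2 naive libraries had 0 counts, and its call was lost without either of them or without Ex1 naive replicate 2 (7.04 to 7.31). MIR205HG, the host transcript of a microRNA, stayed at 1.53 and 1.66 CPM in FAX while it reached 23.8 and 22.1 CPM in mTeSR, a difference of -5.51 (adjusted p = 3.93e-06). LRRN1, a leucine-rich repeat membrane protein gene, rose from 0 and 1.38 CPM to 10.2 and 11.1 CPM in FAX and to 25.2 and 24.9 CPM in mTeSR, and its fitted difference of -3.85 (adjusted p = 0.0333) rested on naive libraries near 0. The LRRN1 call was lost without any 1 of the FAX or mTeSR libraries (-3.91 to -3.79) or Ex1 naive replicate 2 (-2.87), and the value turned to 0.97 without Ex2 naive replicate 2. ADM was at a mean of 12.7 CPM in naive and 8.15 and 12.5 CPM in FAX cells, whereas in Ex1 it went from 2.02 and 2.17 CPM to 19.3 and 28.1 CPM in mTeSR, a difference of -3.75 (adjusted p = 8.57e-08). MAL2 differed by -3.64 (adjusted p = 3.36e-10). In all of these genes but LRRN1 the naive Geltrex libraries of the 2 experiments themselves did not overlap.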

How the results depend on the processing

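For FAX against naive cells, 3505 genes were called, and the alternatives gave between 2711 (Ex1 naive libraries, 1997 of them shared) and 3497 calls, with 2858 against all 6 naive libraries and 3020 to 3148 when 1 library was left out. Without the fold threshold 6734 genes passed. For FAX against XAV, with 2 calls, no filter gave 6, DESeq2 1, a fit to the compared groups alone 44, a fit to Ex2 alone 13, and leaving out any 1 library 0 to 1. LEFTY2 lost its call there in 6 of 13 settings (highest adjusted p 0.83). For FAX against N2B27, with 51 calls, the fit to the compared groups gave 144, that to Ex2 alone 105, no fold threshold 134, and leaving out 1 library 25 to 34, the fewest without FAX replicate 2 and 30 and 32 without N2B27 replicates 2 and 1. For the difference between FAX and mTeSR, with 1027 calls, 1917 passed with no fold threshold, the other settings gave 775 (DESeq2) to 1136, and leaving out 1 library gave 707 to 926. These fits with fewer libraries estimate the spread from fewer groups.

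Of 82 single genes named for FAX against naive, 65 kept direction and call in all settings and 17 lost the call in some. KLF17 and OTX2 turned to -0.22 and -0.25 against the Ex1 naive libraries, and LRRN1 in the comparison with mTeSR ranged from -6.02 to 0.97 when 1 library was left out, turning without naive Ex2 replicate 2, in settings chosen after the data were seen. The cause was not tested. With other scalings the median of all genes moved to 0.030 and 0.031 and higher genes, 57.2% of calls in the reported fit, made up 58.1% and 58.2%.

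Replicate numbers did not pair the samples: deviations of naive and FAX libraries of the same number correlated at r = -0.040. With the replicate block 3489, 2, 53 and 1032 genes were called in the 4 comparisons, and within Ex2 alone the replicate block gave 3357 for naive, 15 for XAV and 108 for N2B27.

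Depth limited low genes: 3 counts, the floor, corresponded to 0.71 to 1.02 CPM, and genes below this in both groups allow no fold.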

Other observations

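Among the genes lower in FAX than in N2B27, several besides ACTC1 encode contractile and muscle cytoskeleton proteins. They were picked after their values were seen and were not tested as a group. TAGLN, an actin binding protein gene of smooth muscle, was at 47.9 and 44.7 CPM in FAX, 32.0 and 36.2 CPM in XAV and 125.8 and 129.4 CPM in N2B27 (log2 difference of FAX to N2B27 -1.46). CNN1, the calponin gene, was at 42.8 and 40.7 CPM in FAX and 106.8 and 122.3 CPM in N2B27 (-1.46), and ACTA1, the skeletal actin gene, at 29.3 and 23.9 CPM in FAX and 58.1 and 77.3 CPM in N2B27 (-1.35). TPM1, a tropomyosin gene, was at 215.8 and 206.8 CPM in FAX and 422.6 and 435.0 CPM in N2B27 (-1.02). In all 4 genes both FAX libraries lay below both N2B27 libraries, and FAX and XAV did not differ by a call. All 4 had risen from naive cells, where TAGLN was at 0.683 and 0.83 CPM.

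The signalling regulator RGS4, an inhibitor of G protein signals, moved opposite to RGS5: it was at a mean of 16.2 CPM in FAX, 15.7 and 16.5 CPM in XAV and a mean of 4.58 CPM in N2B27 (log2 difference of FAX to N2B27 1.81, adjusted p = 0.00134). RGS4 was also chosen after its values were seen.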
